A study of Mus musculus with 2 samples.

Results

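Beta-defensin genes were taken as the protein-coding genes of chromosomes 1 to 19 whose symbol is Defb followed by a number in GENCODE M21, the annotation of the mm10 assembly. This gave 42 of 20807 coding genes. They were set against H1t peaks in spermatogenic cells isolated from testes of ICR mice, an outbred stock, at 6 weeks of age. H1t is a linker histone made in the male germ line, and linker histones bind DNA where it enters and leaves the nucleosome. Chromatin was fragmented by enzyme and precipitated with a rabbit polyclonal antibody to H1t. The other library of the series, an input without antibody, was not analysed here. The number of mice is not given in the sources used here, and a peak list holds no expression with which to check the cell type. With only 1 H1t library, no replicate error exists and no p-value is given. The list held 76546 peaks, 72438 of them on chromosomes 1 to 19, at 30.2 peaks per Mb there. Each peak carries the authors' score, which ran from 50 to 3100 with a median of 73.82 on these chromosomes and is used only to describe or rank peaks in this list. Read depth is unknown, so no counting interval is given.

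Beta-defensins are small secreted cationic peptides held in shape by disulfide bonds. They are known as antimicrobial peptides of epithelia and as ligands of receptors such as Ccr6. In rodents many members are made in the epididymis, where they coat maturing sperm, and the genes lie in clusters that grew by tandem duplication. A typical member has a first exon that encodes the signal peptide and a last exon that encodes the mature peptide, with an intron between them.

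Members were joined into a cluster when neighbours lay within 500 kb, which gave 5 clusters on 4 chromosomes and 1 single gene. Chromosome 1 carried 2 members, from Defb18 to Defb41 (18236473 to 18265138). Chromosome 2 carried 11, from Defb23 to Defb25 (152459055 to 152623053). Chromosome 8 carried a cluster of 14, from Defb40 to Defb7 (18974940 to 19497775), and one of 9, from Defb1 to Defb13 (21776599 to 21948850). Chromosome 14 carried 5, from Defb48 to Defb42 (62977524 to 63058149). Defb33 at chromosome 8, 20892669 to 20897723, stood alone, 1.39 Mb after Defb7 and 0.88 Mb before Defb1. The widest spacing inside a cluster was 150.5 kb, between Defb3 and Defb8. The pseudogene Defb44-ps falls outside the rule, as do the coding genes Gm15056 and Gm6040, for which RefSeq lists Defb52 and Defb51 as synonyms. Neither of those 2 had a peak over the gene, and their nearest peaks were 48.5 and 37.1 kb away.

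**Figure D1:**
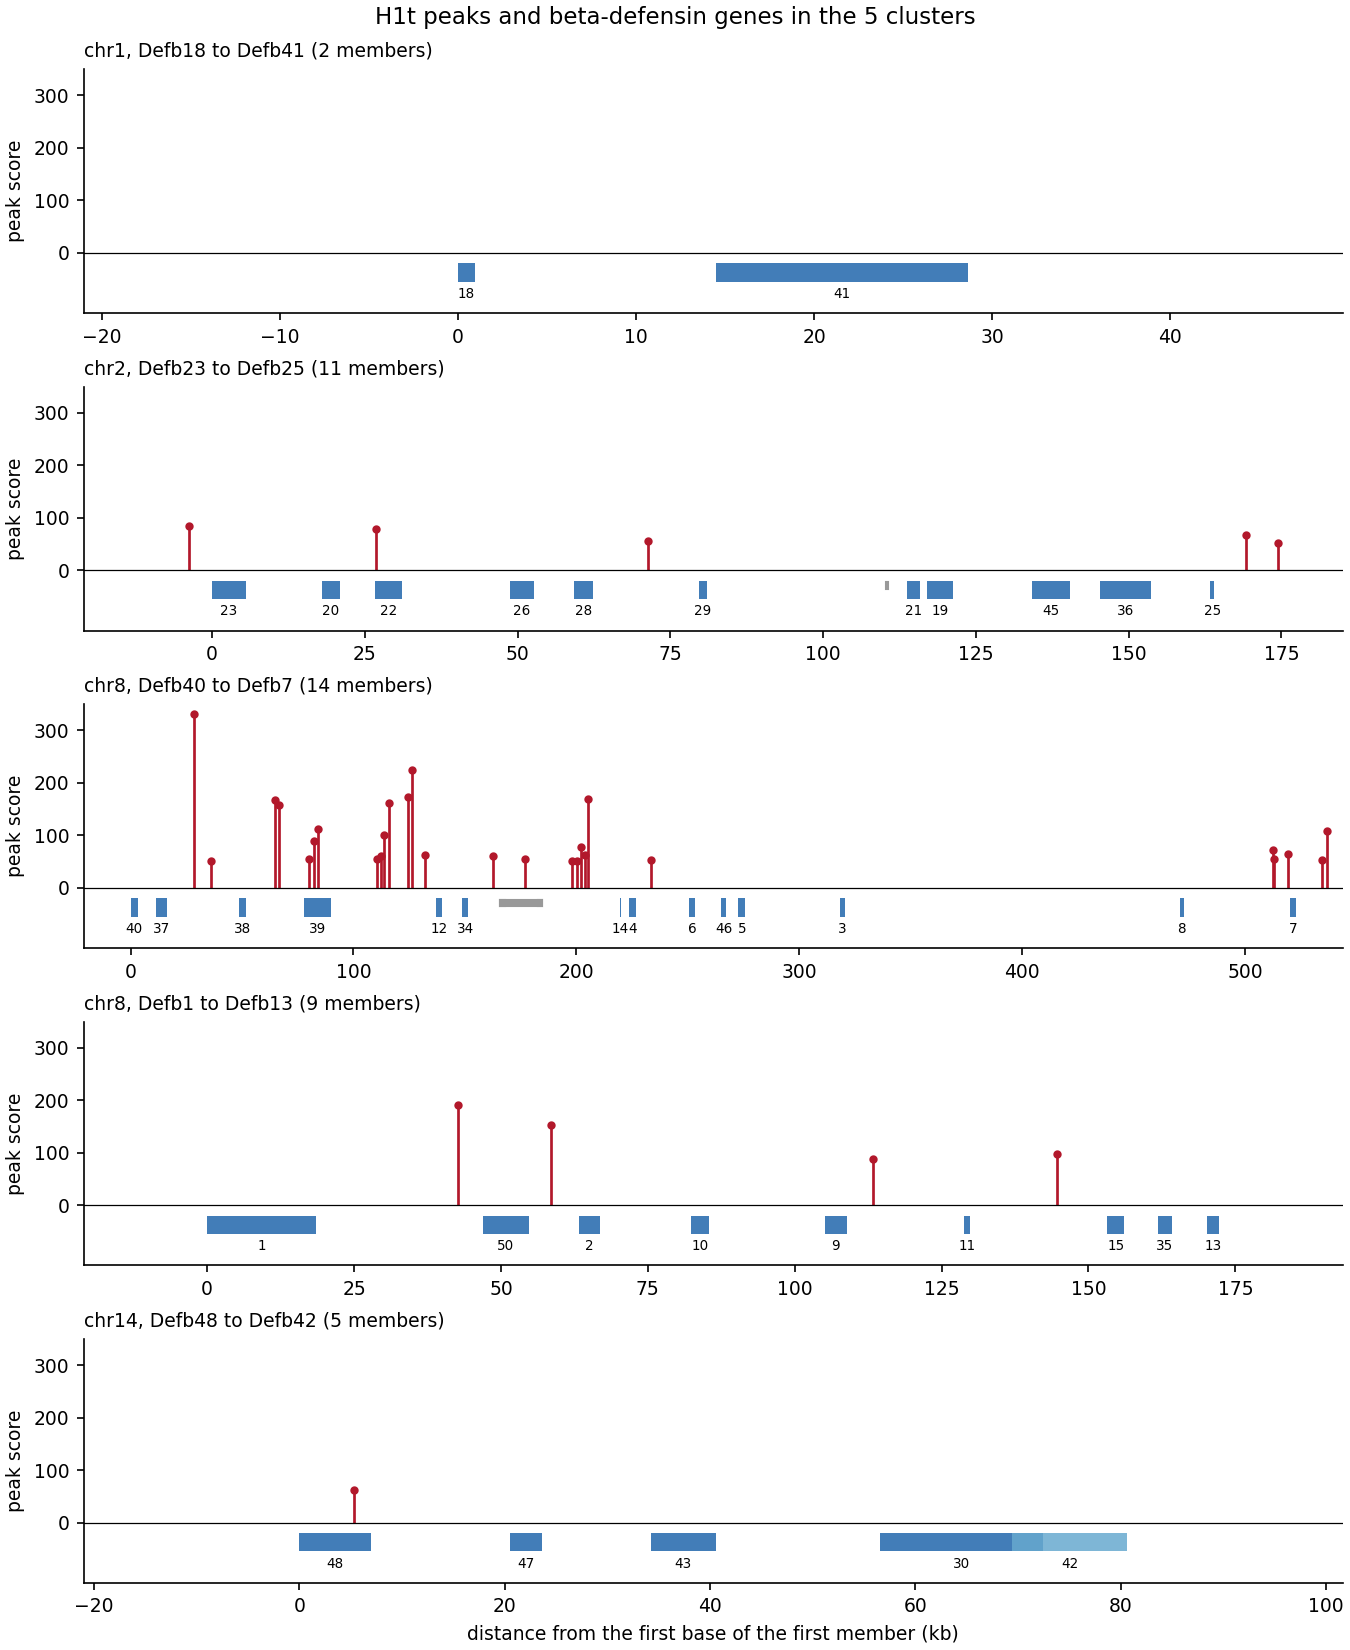
Maps of the 5 beta-defensin clusters, one per panel, with distance in kb from the first base of the first member on the x axis and the authors' peak score on the y axis. Each red stem is an H1t peak at its midpoint, blue boxes are members named by their number (Defb42, which overlaps Defb30, is in light blue), grey boxes are other coding genes, and 20 kb is shown on either side; the 14-member chromosome 8 cluster holds 25 of the 32 peaks, most of them left of Defb14.

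Few members carried a peak themselves. A peak overlapped the gene, by at least 1 bp, in 3 of 42 members: Defb22, Defb39 and Defb48. The background was 50.4% of all coding genes on these chromosomes. It was 32.9% of the 10464 coding genes between 698 and 18587 bp long, the length range of the members, although members sit at the short end of that range (median 3.18 kb against 7.08 kb). The members' share was 7.14%, below both shares. The longest member, Defb1 at 18.6 kb, had no peak over it, nor had Defb30 (15.9 kb), Defb41 (14.2 kb) or Defb42 (11.2 kb). Defb39, shorter than Defb41 but longer than Defb42, did have peaks over it. The shortest member, Defb25 at 698 bp, had no peak over it.

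Defb39, an epididymal member, held 3 peaks, the most of any member. The gene lies at chromosome 8, 19052826 to 19064810, on the minus strand. All 3 peaks lay inside its single intron, at 19054739 to 19055296 (score 54.77), 19056703 to 19057956 (88.77) and 19058459 to 19059419 (112.54). Together they covered 23.1% of the gene. The peak closest to the Defb39 start ended 5.39 kb from it, so the start itself was free. Defb48 (chromosome 14, 62977524 to 62984510, minus strand) had 1 peak of 332 bp in its intron, at 62982689 to 62983020, with a score of 61.64. Its midpoint lay 1656 bp downstream of the start. Scores of these intronic peaks ran from the 16th to the 77th percentile of all peaks on chromosomes 1 to 19.

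Defb22 was the member whose coding sequence carried a peak. Defb22 encodes a sperm-coating protein with a long glycosylated tail. Its gene spans chromosome 2, 152485663 to 152490138, on the minus strand. The peak, of 442 bp with a score of 79.49, lay at 152485653 to 152486094, over the last exon. It covered 368 of the 537 coding bases, or 68.5%, and its midpoint lay 210 bp from the 3′ end of the gene. The GC content of the coding bases under the peak was 57.6%. The Defb22 transcript had a GC content of 53.7%, second among members to the 56.0% of Defb36, where the median of the 42 was 44.8%. Defb36, the member with the most GC-rich transcript, had no peak over it, and its nearest peak was 15.2 kb away.

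The first 300 coding bases under the Defb22 peak are printed because they are the one stretch of member sequence under a peak that the reference files give. They come from the GENCODE M21 transcript, read in the sense direction, and correspond to chr2:152485795-152486094 (GRCm38, minus strand), with CG dinucleotides in capitals.
Defb22: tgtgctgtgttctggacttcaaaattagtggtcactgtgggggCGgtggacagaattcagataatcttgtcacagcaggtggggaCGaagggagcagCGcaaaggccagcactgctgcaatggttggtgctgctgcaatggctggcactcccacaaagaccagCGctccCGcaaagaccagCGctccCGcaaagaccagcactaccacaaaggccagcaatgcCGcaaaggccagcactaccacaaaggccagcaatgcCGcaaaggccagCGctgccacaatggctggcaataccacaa
This stretch has a GC content of 57.0% and 10 CG dinucleotides. A tandem repeat is visible in it. Both strands were searched for AAAGNCCAG, where N is any base, and 8 matches were found in all. Of all 300-base tiles of coding transcripts, 2.18% held at least 1 match and 0 held as many as 8. Tile borders cut the Defb22 repeat itself, so its own tiles also held fewer. Defb29 and Defb42 were the other members with a match, with at most 1 each. The repeat was noticed after the sequence was read, a match is a description, and the part of repeated sequence in this peak was not tested.

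Peaks at starts were counted separately from peaks over genes. A peak midpoint lay within 1 kb of the gene's 5′ end in 1 of 42 members, Defb7. The same was true of 24.2% of all coding genes and of 18.7% of those in the members' length range. The members' share was 2.38%. Defb7, at chromosome 8, 19495097 to 19497775 on the plus strand, had a peak at 19493820 to 19494573 with a score of 63.98. The peak's midpoint lay 901 bp upstream of the start, and its near edge 524 bp upstream, so no base of the gene was covered. It was just inside the window. The next midpoint, that of Defb48 at 1656 bp, was just outside. A window of 500 bp held no member, one of 2 kb held 2 (Defb7 and Defb48) and one of 5 kb held 6, adding Defb22, Defb50, Defb2 and Defb9. No share of all coding genes is given for these other widths. For 29 of the 42 starts (69.0%) the nearest peak edge was more than 10 kb away, against 48.7% of all coding genes. The call for Defb7 ended with peaks at or above the median score, which leave no member with a peak at its start.

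Promoter sequence was compared next, since start peaks in this library differ with GC content. A RefSeq promoter window (GRCm38.p6, 250 bases before the start to 50 after it) matched the GENCODE start within 1000 bp for 27 of the 42 members and for 13562 coding genes, and the other 15 members were left out here. Members had GC contents from 29.7% (Defb41) to 56.7% (Defb29) with a median of 48.3%, where all coding genes had a median of 58.3% and those with a start peak 64.3%. The members' windows held 0 to 8 CG dinucleotides with a median of 1, against 16 in all coding genes and 24 in those with a start peak. At least 1 CG was present in 77.8% of member windows and in 96.9% of all windows. Of the members, 17 fell in the lowest of 5 GC classes of similar size, 9 in the second, 1 in the third and 0 in the upper classes. Start peaks were found in 7.05% of all genes of the lowest class, where 1 of 17 members had one. In the second class they were found in 16.3%, where 0 of 9 members had one. Over all coding genes with a window in the members' GC range the share was 12.6%, the lowest of the 3 backgrounds for starts. Its counterpart is the 27 members with a window, of which 1 had a start peak. Most of these 27 sat in the lowest class, so the 12.6% does not match their spread of GC content. The part of base composition in the members' count was not tested.

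**Figure D2:**
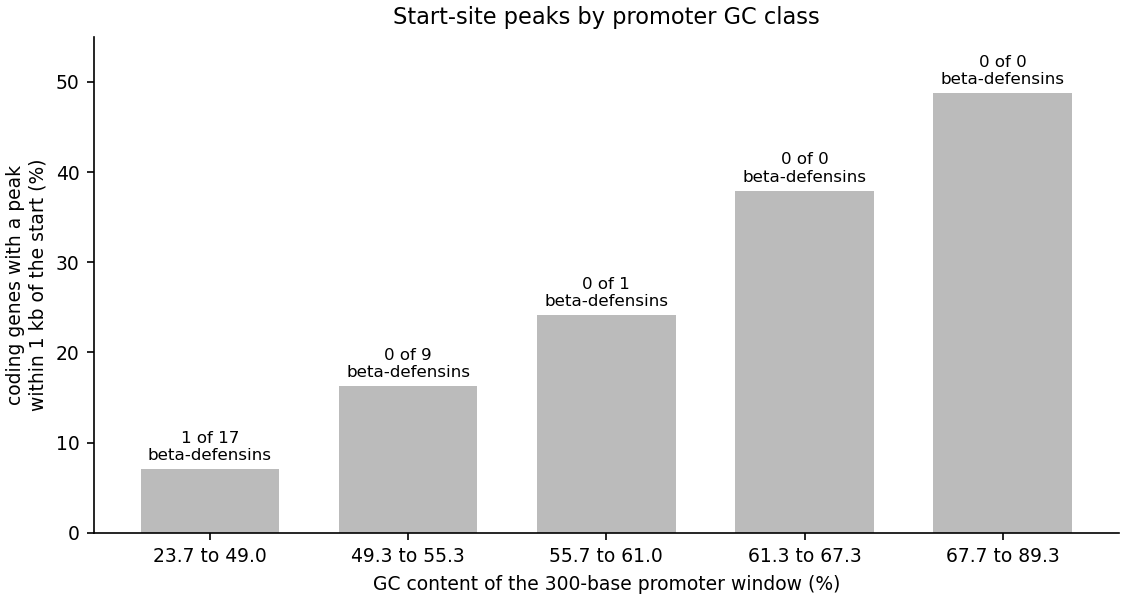
Share of coding genes with a peak midpoint within 1 kb of the start (y axis, %), for 5 classes of promoter GC content (x axis, %); the text above each bar gives the beta-defensin genes of that class. The share rises from 7.05% to 48.8%, and all 27 beta-defensin windows lie in the lower 3 classes.

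The 250 bases upstream of 3 starts show how little CG these promoters hold. Defb7 and Defb48 are the members whose starts lay closest to a peak midpoint, and the Defb36 window tied with that of Defb47 for the most CG. They are from RefSeq, GRCm38.p6, in the sense direction, with CG in capitals. The Defb7 stretch is chr8:19494847-19495096 (plus strand), the Defb48 stretch chr14:62984511-62984760 (minus strand) and the Defb36 stretch chr2:152604077-152604326 (plus strand).
Defb7: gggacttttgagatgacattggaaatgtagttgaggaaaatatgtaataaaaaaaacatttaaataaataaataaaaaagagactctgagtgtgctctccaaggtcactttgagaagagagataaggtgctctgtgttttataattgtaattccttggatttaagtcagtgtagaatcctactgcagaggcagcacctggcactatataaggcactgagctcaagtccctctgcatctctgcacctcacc
Defb48: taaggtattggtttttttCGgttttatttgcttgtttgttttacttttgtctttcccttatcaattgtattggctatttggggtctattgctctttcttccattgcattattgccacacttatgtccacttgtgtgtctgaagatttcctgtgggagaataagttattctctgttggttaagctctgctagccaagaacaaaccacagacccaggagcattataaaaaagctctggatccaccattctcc
Defb36: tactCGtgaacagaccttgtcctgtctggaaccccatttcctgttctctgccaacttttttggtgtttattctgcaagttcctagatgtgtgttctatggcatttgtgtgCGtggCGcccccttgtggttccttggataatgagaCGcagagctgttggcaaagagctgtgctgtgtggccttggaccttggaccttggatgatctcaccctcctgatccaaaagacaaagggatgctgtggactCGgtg
CG (the same letters on both strands) occurred 0 times in the Defb7 stretch, 1 time in that of Defb48 and 5 times in that of Defb36. GC contents were 38.4%, 38.4% and 50.4%. The Defb7 stretch begins 274 bp after the end of its peak, so none of its printed bases lay under the peak. Defb36, with the most CG of the 3, had its start 23.6 kb from the nearest peak.

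Around the genes, 15 of 42 members had a peak over the gene or within 10 kb (35.7%), against 70.4% of all coding genes and 61.9% of those in the members' length range. Members closer together than this flank share peaks, so the 15 are not independent. The distance from the gene to the nearest peak had a median of 15.1 kb with quartiles of 5.94 and 28.7 kb. Coding genes of the same length range had a median of 5.25 kb. Among members with no peak over the gene, the nearest were Defb7 (0.52 kb), Defb50 (3.32 kb) and Defb23 (3.41 kb). The farthest were Defb3 (84.7 kb), Defb42 (55.2 kb) and Defb18 (54.6 kb). Defb3 is an inducible antimicrobial member of airway epithelium, and Defb42 is epididymal. The other members without a peak lay between 4.1 kb (Defb9) and 51.1 kb (Defb30) from one. By cluster the median distance was 40.8 kb on chromosome 1, 8.72 kb on chromosome 2, 12.5 and 14.3 kb in the 14-member and 9-member clusters of chromosome 8, and 28.8 kb on chromosome 14.

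**Figure D3:**
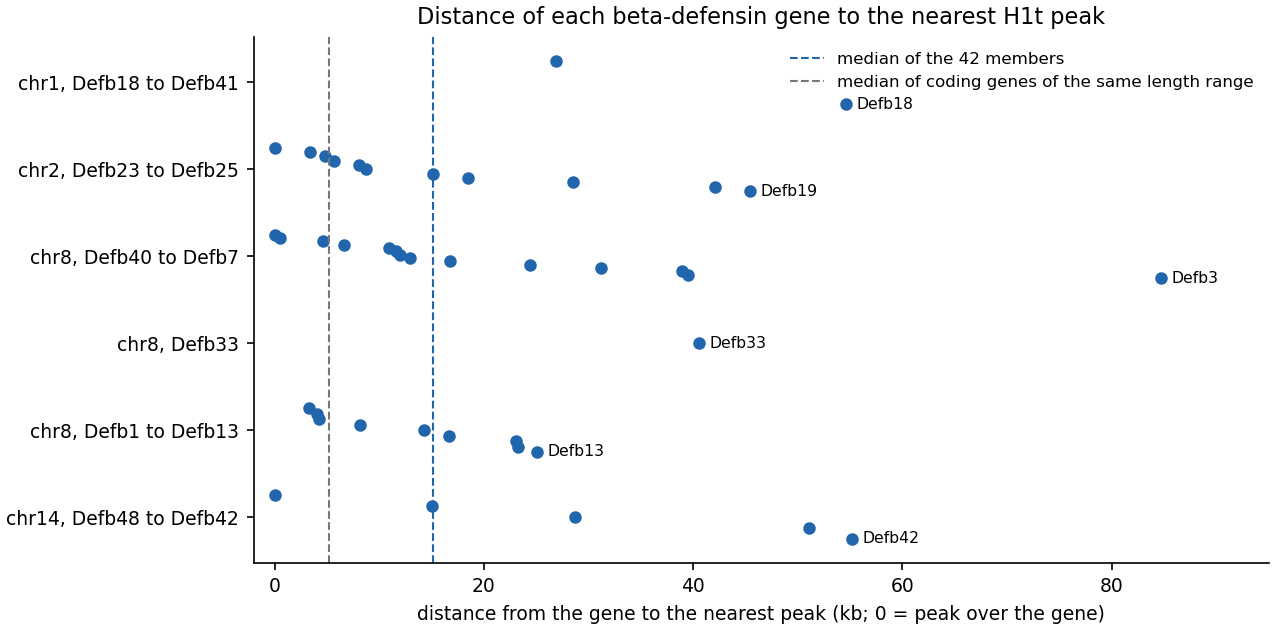
Distance in kb from each of the 42 beta-defensin genes to the nearest H1t peak (x axis), by cluster (y axis), with 1 point per gene, offset vertically only so that points can be told apart, and the farthest gene of each cluster named. Dashed lines mark the median of the members (15.1 kb) and of coding genes of the same length range (5.25 kb); points at 0 have a peak over the gene.

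The clusters did not carry few peaks as a whole, and most of their peaks lay in 1 of them. Over all 5, 0.97 Mb held 32 peak midpoints, or 33.0 per Mb, close to the 30.2 of chromosomes 1 to 19. Peaks covered 2.76% of the cluster sequence against 2.45% of those chromosomes. Of the 32 peaks, 25 lay in the 14-member cluster on chromosome 8, which had 47.8 peaks per Mb where chromosome 8 had 30.9. The other 4 clusters together held 7 peaks, 15.7 per Mb, with 1.32% covered. The sequence within 500 kb on either side of those 4 held 34.5 peaks per Mb. By cluster, density was 0 on chromosome 1, 12.2 per Mb on chromosome 2, 23.2 in the 9-member cluster of chromosome 8 and 12.4 on chromosome 14. These values rest on 0, 2, 4 and 1 peaks, too few to rank these 4 clusters. The outer 500 kb held 48, 44, 23 and 23 per Mb in the same order of clusters, and 35 around the 14-member cluster. That last value joins unlike sides, 4 peaks in the 500 kb before the cluster and 31 in the 500 kb after it. The 14-member cluster itself held 25 in 522.8 kb. The chromosome 1 cluster is only 28.7 kb long, which at the 27.6 peaks per Mb of its chromosome makes a count of 0 uninformative.

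**Figure D4:**
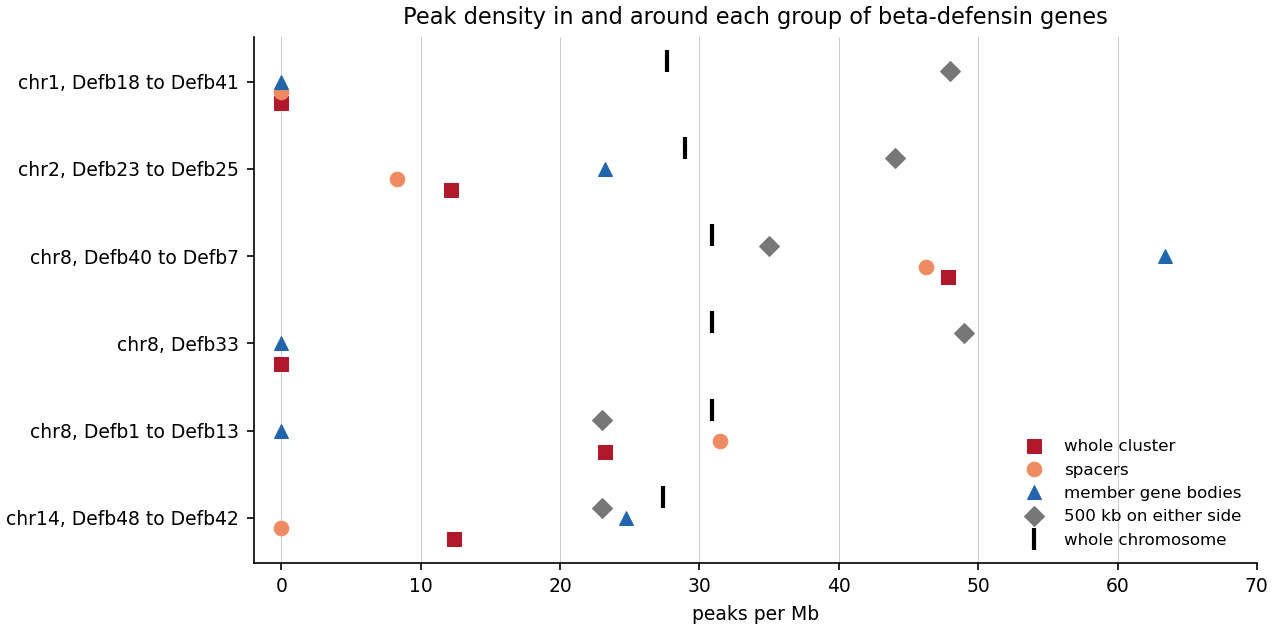
Peaks per Mb (x axis) in each of the 5 clusters and at the single gene Defb33 (y axis), for the whole cluster, its spacers, its member gene bodies, 500 kb on either side and the whole chromosome. The 14-member chromosome 8 cluster is the one whose density (47.8) exceeds that of its chromosome (30.9) and the mean of both its sides (35). Its sides are unlike, with 4 peaks in the 500 kb before it and 31 in the 500 kb after it.

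Most peaks lay in spacers, the sequence between neighbouring members, but so did most of the cluster sequence, 0.777 of 0.97 Mb. The clusters had 35 spacers of 1.1 to 150.5 kb (median 13.6 kb), and 1 pair of neighbours, Defb30 and Defb42, overlapped. Spacers held 27 of the 32 midpoints, 34.7 per Mb over 0.777 Mb, and gene bodies were overlapped by 5 peaks, 26.1 per Mb over 191.3 kb. Single clusters did not all share that order. Gene bodies were denser than spacers on chromosome 2 (23.2 against 8.27 per Mb) and chromosome 14 (24.7 against 0). They were also denser in the 14-member cluster (63.4 against 46.3), but not in the 9-member cluster (0 against 31.5). Each of these gene-body values rests on at most 3 peaks. No peak was found in 24 of the 35 spacers, while 3 spacers with 3 or more held 17. The spacer from Defb39 to Defb12 held 7 peaks in 47.1 kb, with scores up to 224.12. The one from Defb34 to Defb14 held 7 in 67.8 kb, with scores up to 168.44, and the one from Defb8 to Defb7 held 3 in 47.5 kb. Without the 14-member cluster, spacers held 5 peaks at 16.6 per Mb and gene bodies 2 at 13.9 per Mb.

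The 14-member cluster of chromosome 8 had a peak-rich side and a peak-poor side. Its first 7 members, Defb40, Defb37, Defb38, Defb39, Defb12, Defb34 and Defb14, lie in 220.3 kb with 21 peaks, 95.3 per Mb. Defb37 to Defb40 are known for expression in the epididymis, and Defb14 for binding to the receptor Ccr6. The strongest peak of any cluster, with a score of 331.08, lay between Defb37 and Defb38 at 19002639 to 19004210. It was 11.6 kb from Defb37, the nearer gene. Peaks with scores of 166.75 and 158.32 followed between Defb38 and Defb39. In the spacer after Defb39, 2 neighbouring peaks at 19098683 to 19100408 and 19100604 to 19101599 had scores of 172.49 and 224.12. Between Defb34 and Defb14, 5 peaks lay over the lincRNA gene Gm39139 and 1 over Gm45826, a coding gene that overlaps the epididymal genes Spag11b and Spag11a. No peak overlapped Spag11a or Spag11b themselves.

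From Defb4 to Defb8, 248.9 kb with 6 members held 1 peak, 4.02 per Mb. That peak, with a score of 53.51, lay 6.61 kb after Defb4, an antimicrobial gene of the upper airways and mouth. The stretch from 19208694 to 19487106, 278.4 kb with Defb6, Defb46, Defb5, Defb3 and Defb8 inside it, held no peak. Of 72419 peak-free stretches between neighbouring peaks on chromosomes 1 to 19, 360 (0.5%) were at least as long, and the median was 13.5 kb. The stretch was picked as the longest of its cluster, so its rank is a description only. Long stretches also take up a larger share of the sequence than of the count. Assembly gaps and repeats inside it were not examined, since no genome sequence was used here. The last 50.2 kb, up to Defb7, held 3 peaks with scores of 54.81 to 72.47.

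The 9-member cluster of chromosome 8, whose deletion in mice is known to impair sperm function, had peaks only in its spacers. Spacers made up 73.7% of its span, and it held only 4 peaks. None of its 9 members had a peak over the gene or at the start, where the shares of all coding genes were 50.4% and 24.2%. Its 4 peaks lay between Defb1 and Defb50 (score 191.67), Defb50 and Defb2 (152.03), Defb9 and Defb11 (88.13) and Defb11 and Defb15 (96.66). The last of these overlapped Gm36879, an antisense RNA gene. The first, at 21818310 to 21820216, was 1907 bp wide and lay 3.32 kb upstream of Defb50. Defb1, the constitutive member of kidney and airway epithelium, lay in the cluster's longest peak-free stretch, 101.4 kb, and was 23.1 kb from a peak. Defb13, the last member, was 25.1 kb from one. Within 10 kb, 4 of the 9 members had a peak: Defb50, Defb2, Defb9 and Defb15. The share of all coding genes was 70.4%, and 61.9% in the members' length range.

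The chromosome 2 cluster had 2 peaks, the one over Defb22 and one between Defb28 and Defb29 (score 55.43). Within 10 kb of a peak were 6 of its 11 members, where the share was 70.4% of all coding genes and 61.9% in the members' length range. Defb20, Defb22, Defb28 and Defb29 were near the peaks inside the cluster. Defb23 and Defb25 were near peaks just outside it, 3.41 kb before Defb23 (84.4) and 4.86 kb after Defb25 (67.7, in the neighbouring gene Rem1). From 152530631 to 152627912, 97.3 kb with 6 members held none. Defb19, expressed in Sertoli cells of the testis, was 45.5 kb from a peak and Defb21 42.1 kb. On chromosome 14 the peak in Defb48 was the only one, and Defb47, Defb43, Defb30 and Defb42 lay together in 130.3 kb without a peak. On chromosome 1, Defb18 and Defb41, the latter an epididymal gene, lay in 134.1 kb without a peak. Defb33 lay in 107.1 kb without one, 40.6 kb from the nearest.

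Scores of the cluster peaks ran from 50.6 to 331.08, where the highest score on chromosomes 1 to 19 was 3100. Among the 32, the middle score was 75.16, and the quartiles were 55.28 and 153.6. On chromosomes 1 to 19 the quartiles were 58.29 and 108.21 around the median of 73.82, so the upper quartile was higher in the clusters and the median close. Their median width was 653 bp against 699 bp. A neighbouring peak within 10 kb was found for 22 of the 32 (68.8%), against 65.9% of all peaks. The 25 peaks inside the 14-member cluster had a median score of 63.98, an upper quartile of 158.32 and a maximum of 331.08. The 7 outside it had a higher median, 88.13, and a lower upper quartile and maximum, 124.34 and 191.67.

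The gene model mattered for Defb14. RefSeq gives it a span of 35.1 kb, from 19160244 to 19195309, where GENCODE gives 856 bp. The longer span takes in the 5 peaks over Gm39139, so 4 of 42 members had a peak over the gene with RefSeq spans. The start count stayed at 1 with RefSeq starts. Sequence shared with other genes was also measured, since reads from copies can be placed at more than 1 of them. Of the 42 members, 10 had 50-mers in their transcripts that also occur in transcripts of another gene. For Defb15 and Defb42 none of these other genes was a member. No share of all coding genes is given for this measure, so the 10 describe the members only. Defb2, Defb11 and Defb10 shared 20.7%, 19.8% and 16.9% of their 50-mers with each other or with Defb9, which lie side by side. Defb15 shared 37.2% with Gm36879, an antisense RNA gene that overlaps it. Both strands were searched, so this value can come from the same bases and does not show a second copy. Defb4 and Defb8 shared 5.7% and 9.7% with each other. The transcripts of Defb22, Defb39, Defb48 and Defb7, the members with a peak over the gene or at the start, shared none. Transcripts hold no introns or upstream sequence, so the bases under the peaks of Defb39, Defb48 and Defb7 were not in this measure. The part of shared sequence in the peaks or their absence was not tested for any member.

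Other genes of the pathway and of the epididymis were counted in the same manner. The 22 alpha-defensin genes encode antimicrobial peptides of intestinal Paneth cells and lie near the beta-defensins on chromosome 8. Of these, 0 had a peak over the gene, 0 one at the start and 2 one within 10 kb. Their median length was 0.97 kb, against 17.6 kb for all coding genes. Among all coding genes the shares were 50.4% over the gene, 24.2% at the start and 70.4% within 10 kb. Among 4 receptors and partners, Camp, which encodes the antimicrobial peptide cathelicidin, had a peak over the gene and at the start (score 62.63). Tlr4, the receptor for lipopolysaccharide, had 2 over its 102.7 kb (up to 88.25). Ccr6 and Mc1r had none over the gene. Of 18 epididymal genes, 2 had a peak over the gene, Crisp1 (52.63) and Crisp4 (up to 69.8), and 0 at the start, and 7 had one within 10 kb. Of the 4 other coding genes inside the clusters, 1 had a peak over it, Gm45826 (53.9), and 0 at the start.

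Beside other clustered families, beta-defensins had shares like those of some and unlike those of others. Start peaks were found in 1.2% of 1087 olfactory receptor genes, 0 of 26 killer lectin-like receptor genes and 31.6% of 57 keratin-associated protein genes, against 2.38% here. In the same order, median gene length was 5.98, 13.7 and 0.89 kb, against 3.18 kb for beta-defensins. Median GC of the matched promoter windows was 36.3%, 39.7% and 41.3%, against 48.3%, so all 3 families were lower. Windows were matched for 209, 22 and 50 genes, against 27 beta-defensins, so the GC values cover fewer genes than the start shares. Peaks over the gene were found in 4.51%, 11.5% and 33.3% of these families, and within 10 kb in 46.4%, 34.6% and 61.4%. These are values of 1 library set side by side, and the differences were not tested.

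**Figure D5:**
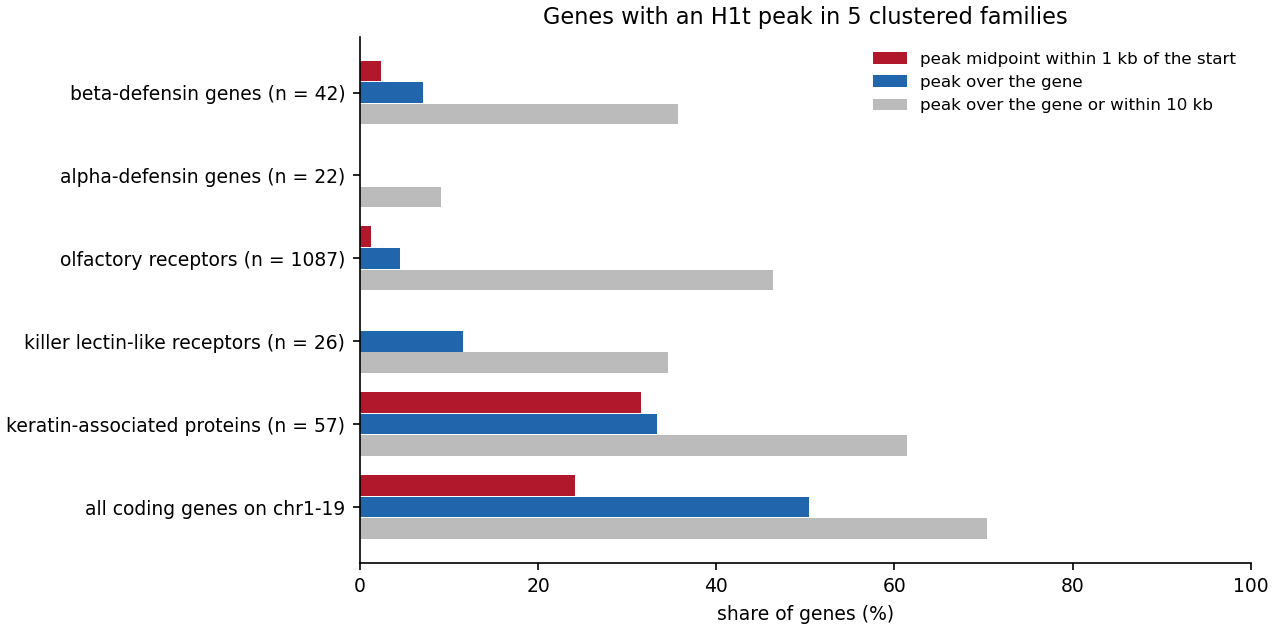
Share of genes (x axis, %) with a peak midpoint within 1 kb of the start, a peak over the gene, and a peak over the gene or within 10 kb, for 5 clustered gene families and all coding genes on chromosomes 1 to 19 (y axis). Beta-defensins have 2.38%, 7.14% and 35.7%, and all coding genes 24.2%, 50.4% and 70.4%.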

How the data were processed

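One library of H1t chromatin immunoprecipitation from mouse spermatogenic cells was used. The submitters' processing notes name Bowtie 1.1.2 and the assembly mm10. The authors deposited 1 peak list with a score per peak; the sources used here do not name the peak caller, its threshold, how the input entered or how reads with several positions were handled. Peak names have the form that MACS writes.

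Peaks were compared with GENCODE M21 (GRCm38, the assembly of mm10), counted from 1. A peak over a gene shares at least 1 bp with it, and start windows, clusters and spacers were counted by peak midpoint. Densities of chromosomes used the sequence between the first and last gene or peak, without stretches of 500 kb or more that held neither. Promoter windows came from RefSeq and 50-mers from GENCODE transcripts. Counting was tested on simulated data with planted peaks, all of which were recovered. The members and lists were chosen with earlier results of these data known. Named genes were those with a peak over the gene or at the start, the first and last of each cluster, the nearest and farthest from a peak, the longest and shortest, and the strongest spacer peaks and longest peak-free stretches; members named for other reasons, such as base composition, shared sequence or known expression, were chosen after their values were seen. The promoter match within 1000 bp, the 50-mers, the peak-rich and peak-poor sides and the repeat were chosen after the data were seen. Protein sequences were not used here. Python 3.11.15, numpy 2.4.6, pandas 2.3.3 and matplotlib 3.10.9 were used.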

Additional observations from a re-analysis of the deposited data

How the results depend on the processing

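Of 44 alternative values for 7 results, 24 were within 1.5 times the reported value. Thresholds on the score remove peaks by construction. No share of all coding genes is given for member counts at other score cuts, windows, flanks or gene spans, so those counts describe the members only. With peaks at or above the median score, members with a start peak fell from 1 to 0 and those within 10 kb from 15 to 8. Densities were 16.5 per Mb over clusters, 16.7 over spacers and 15.7 over gene bodies, where chromosomes 1 to 19 had 15.1. With scores of at least 100, 1 member had a peak over the gene (Defb39), 0 at the start and 3 within 10 kb. Densities were then 11.4 over clusters, 12.9 over spacers and 5.23 over gene bodies, with 1.47% covered. Chromosomes 1 to 19 had 8.82 per Mb at the same cut. The start count was 0 with a window of 500 bp and 2 with one of 2 kb, and a flank of 20 kb gave 25 members with a peak. Without the 14-member chromosome 8 cluster, an alternative added after the data were seen, the start count was 0, and the values were 15.7 per Mb over clusters, 16.6 over spacers, 13.9 over gene bodies and 1.32% covered. RefSeq spans were also added later. Removal of assembly gaps was not run, since no genome sequence was used here. No paired analysis was possible because the result comes from no test. Depth is unknown, so how far low-scoring peaks stand above noise was not tested.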

Other observations

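High-scoring peaks were counted by cluster. A score of at least 150, a threshold chosen after the scores were seen, was reached by 9 of the 32 cluster peaks, 9.29 per Mb, against 3.81 per Mb on chromosomes 1 to 19. All 9 were in the 2 clusters of chromosome 8 (12.95 per Mb, where the whole chromosome had 3.94), but so were 29 of the 32 peaks of any score, so their place is near that share. With all scores counted, the same 2 clusters had 41.7 peaks per Mb and chromosome 8 had 30.9.

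The stretch from Defb40 to Defb14 was also compared with fixed tiles of its own length, 220.3 kb. Of 11175 tiles on chromosomes 1 to 19, 151 (1.35%) held at least as many as its 21 peaks, the median tile held 5 and the fullest 42. The stretch was drawn around its peaks after they were seen, so its rank among fixed tiles is a description only.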
